A study of Mus musculus with 2 samples.

Results

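The 6 genes Afp, Gpc3, H19, Igf2, Tff3 and Akr1c18 were followed as oncofetal and liver tumor markers, among 32285 gene features in each library. They were chosen by name, and their raw UMIs (unique molecular identifiers, each standing for 1 captured transcript molecule) were summed over hepatocyte and cholangiocyte barcodes, by depth, and over the other cell types defined by markers. The data were 2 single-cell libraries of liver tumors from C57BL/6J mice. The hKO library came from mice with a hepatocyte knockout of Fabp5, in which an albumin-driven Cre-ER recombinase, active after tamoxifen, removes the gene. The WT library came from wild-type littermates, and the labels do not give the Fabp5 or Cre alleles they carried. Mice of both groups, 6 to 8 weeks old, received 5 tamoxifen injections of 100 mg/kg, 3 days apart and each following a 16 h fast. From 2 weeks later they were kept on CD-HFD, as the labels call the diet, for 15 months. Each library pooled 2 to 3 hepatocellular tumors, so mice and tumors within a library could not be separated.

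Oncofetal genes are active in fetal liver, are largely silenced after birth and are known to return in some liver tumors. Afp encodes alpha-fetoprotein, a secreted relative of albumin and the classic serum marker of hepatocellular carcinoma. Gpc3 encodes glypican-3, a heparan sulfate proteoglycan of the cell surface. H19, a long noncoding RNA, and Igf2, a growth factor, lie next to each other in an imprinted domain that is active in the fetus. Tff3 encodes a small secreted trefoil peptide of mucous epithelia that has been found raised in liver tumors. Akr1c18 encodes the 20-alpha-hydroxysteroid dehydrogenase that inactivates progesterone.

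The hKO library held 18657 barcodes and 68010317 UMIs, and the WT library held 14289 barcodes and 58772330 UMIs. Barcodes were kept from 200 genes and 500 UMIs upward where mitochondrial UMIs did not exceed 25%, which left 11451 in hKO and 9853 in WT, with medians of 3907 and 3932 UMIs. The 2 libraries shared 73 barcode sequences, 33 of them kept in both. The libraries stood apart beyond the tumor cells: in a joint clustering without integration, 1 B cluster held 64 hKO and 1287 WT barcodes and another held 1263 hKO and 49 WT barcodes. With 1 library per group, genotype, pool and library cannot be told apart. No test between the groups was possible, and every interval below covers counting error only. Fabp5 itself had 44 UMIs in hKO and 69 UMIs in WT hepatocyte barcodes, a log2 ratio of -0.94 (95% interval -1.52 to -0.38). The labels do not name the deleted part of Fabp5, and counts from a transcript's 3' end therefore do not check the knockout.

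Hepatocyte barcodes were those with at least 2% of their UMIs from 12 hepatocyte genes such as Alb, and numbered 1102 in hKO and 228 in WT. All 12 genes were above 50 CPM (UMIs per 1e+06 UMIs of the same barcodes) in both libraries. Cholangiocyte barcodes had at least 3 of 8 biliary genes on and numbered 22 in hKO and 44 in WT. Of these, 2 hKO and 5 WT barcodes also passed the hepatocyte gate. Barcodes that passed either gate and also carried at least 3 markers of another type, 721 in hKO and 338 in WT, were kept apart as mixed. Near the hepatocyte cut, between 1.5 and 2.5% of UMIs, lay 886 hKO and 254 WT barcodes. Hepatocyte barcodes were shallower in hKO, with a median of 1287 UMIs against 2102.5 UMIs in WT. Their median mitochondrial share was 19.2% in hKO and 8.65% in WT, and a further 3920 hKO and 175 WT hepatocyte barcodes were over the mitochondrial limit. The part of depth and mitochondrial share in the results was not tested beyond the bins and limits given below.

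In hepatocyte barcodes the members split in direction. Tff3 was far higher in the hKO library, while Afp and Akr1c18 were far lower and close to 0 there. Gpc3 was also lower in hKO, at levels under 50 CPM in both libraries. H19 was found in a handful of barcodes, and Igf2 in none. A gene was counted as different when it reached 50 CPM in a library, its log2 ratio of hKO over WT was at least 1 in size and the ratio's interval excluded 0. By that rule 1 of the 6 members was higher and 2 were lower in hKO. Of all 3771 genes at 50 CPM in a library, 10.8% were higher and 42% were lower, so a count of 2 lower genes is no result about the members, and the sizes of the ratios are given instead. The median log2 ratio over genes at 50 CPM in both libraries was -0.36.

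Tff3 had 7370 UMIs in hKO hepatocyte barcodes and 45 UMIs in WT hepatocyte barcodes. Its level was 2306 CPM (95% interval 2254 to 2360) in hKO and 17.3 CPM (12.6 to 23.1) in WT. The log2 ratio was 7.06 (6.64 to 7.52), a 133-fold difference, and 8 of the 3771 genes had a higher ratio. A Tff3 UMI was present in 813 of 1102 hKO barcodes (73.8%) and in 17 of 228 WT barcodes (7.46%). The largest WT barcode held 18 of the 45 WT UMIs, and without the top barcode of each library the log2 ratio was 7.71.

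Akr1c18 had the opposite direction. It had 13 UMIs in hKO and 1571 UMIs in WT hepatocyte barcodes, or 4.07 CPM (2.17 to 6.96) and 603.5 CPM (574.0 to 634.0). The log2 ratio was -7.21 (-8.13 to -6.43), a 148-fold difference, and 7 genes had a lower ratio. A UMI of Akr1c18 was found in 10 hKO barcodes (0.907%) and in 149 WT barcodes (65.4%). No WT barcode held more than 62 of the 1571 UMIs. Of the 149 barcodes, 75 had at least 5 UMIs each and held 1419 of the 1571.

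Afp followed the same direction as Akr1c18. There were 11 UMIs in hKO and 639 UMIs in WT hepatocyte barcodes, 3.44 CPM (1.72 to 6.16) against 245.5 CPM (226.8 to 265.2). Its log2 ratio was -6.16 (-7.17 to -5.31), a 71.3-fold difference, with 17 genes lower. Afp was detected in 8 hKO barcodes (0.726%) and 102 WT barcodes (44.7%). The share in hKO was no higher than the 1.06% of hKO T or NK barcodes with an Afp UMI, a type that should lack the gene, at median depths of 1287 and 4095 UMIs. Thinned to 3000 UMIs, the shares were 0.495% of 202 hepatocyte and 0.336% of 893 T or NK barcodes in hKO, and thinned to 10000 UMIs they were 6.52% (1.37 to 17.9) of 46 and 1.10% (0.0278 to 5.97) of 91. The intervals overlapped, so Afp in hKO hepatocyte barcodes was not told from that in T or NK barcodes at these depths. Without thinning, the hKO hepatocyte level was above the 1.01 CPM (0.636 to 1.54) of hKO monocyte or macrophage barcodes, and hKO endothelial barcodes held 0 Afp UMIs. The hKO B barcodes, at 1.25 CPM (0.405 to 2.91), and erythroid barcodes, at 4.99 CPM, were not apart from it. In WT, 1.76% of T or NK barcodes had an Afp UMI, at a median of 4028 UMIs. A gene on the opposite strand that overlaps Afp, Gm43449, had 47 UMIs in the hKO library and 19 UMIs in the WT library, and the strand setting of the counting is not stated.

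**Figure D1:**
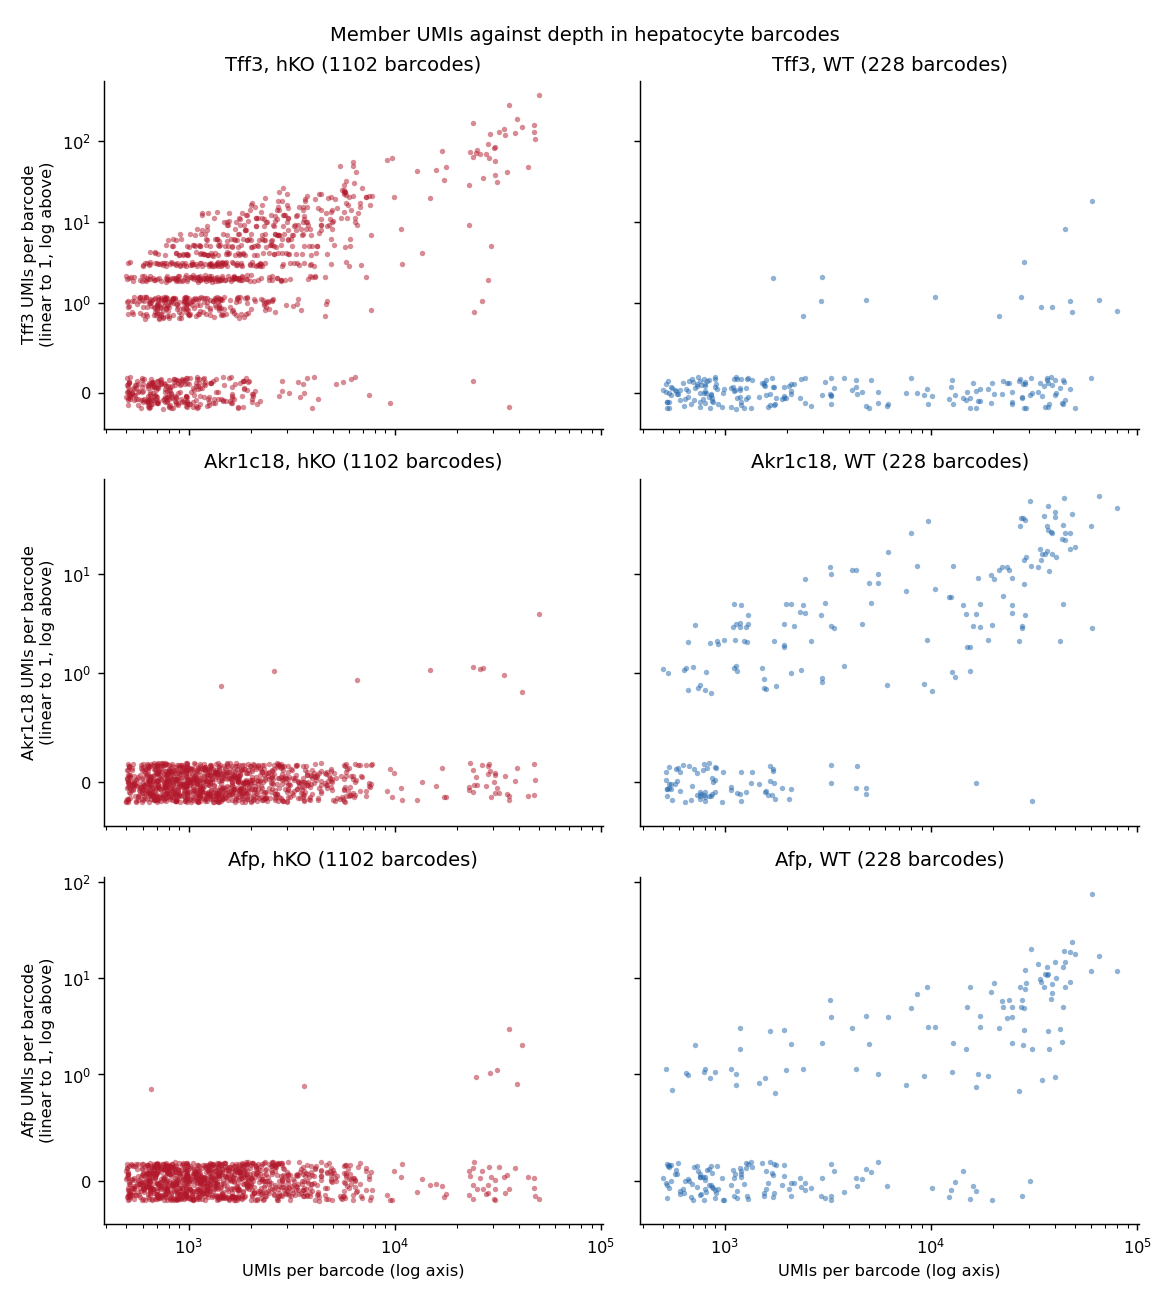
UMIs of Tff3, Akr1c18 and Afp (vertical, linear to 1 and logarithmic above, points jittered) against total UMIs (horizontal, log axis) for each hepatocyte barcode, hKO on the left and WT on the right. Tff3 reaches 365 UMIs in an hKO barcode and 18 in a WT barcode, while Akr1c18 reaches 4 and 62 and Afp reaches 3 and 76.

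Gpc3 had 6 UMIs in hKO and 87 UMIs in WT hepatocyte barcodes, 1.88 CPM (0.689 to 4.09) and 33.4 CPM (26.8 to 41.2), with a log2 ratio of -4.15 (-5.64 to -2.97). It did not meet the rule because neither library reached 50 CPM. The WT signal was concentrated, since 34 of the 87 UMIs came from 1 deep barcode of 48168 UMIs that also held 4343 Alb UMIs. Without the top barcode of each library the log2 ratio was -4.05, from 4 UMIs in hKO and 53 UMIs in WT.

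H19 had 38 UMIs in hKO and 20 UMIs in WT hepatocyte barcodes, 11.9 CPM (8.42 to 16.3) and 7.68 CPM (4.69 to 11.9). The log2 ratio was 0.63 with an interval of -0.19 to 1.49, so the difference was within counting error. The 38 hKO UMIs lay in 12 barcodes, 1 of which held 19. All 20 WT UMIs lay in 1 barcode of 4844 UMIs, with 124 Alb UMIs and all 12 hepatocyte markers on. An unassigned hKO barcode, outside the hepatocyte gate, held 55 H19 UMIs among 5513, with 8 of the 12 hepatocyte markers on. H19 thus lay in 12 of 1102 hKO and 1 of 228 WT barcodes, and its ratio changed sign with the gate: it was -1.30 with the hepatocyte gate at 5% and 1.92 with the gate at 1%.

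Igf2, which H19 accompanies in the genome, had 0 UMIs in hepatocyte and cholangiocyte barcodes of both libraries. A count of 0 allows up to 3 counts, or 0.939 CPM in hKO and 1.15 CPM in WT hepatocyte barcodes. In the GENCODE M21 transcripts, 61.9% of the 31-base words of Igf2 also occur in other genes, against 0% for Afp and Tff3, 0.0376% for Gpc3, 2.11% for H19 and 4.15% for Akr1c18. The read-through gene that shares the most with Igf2, Gm49394, is not a feature of these counts.

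Tff3, Akr1c18 and Afp each kept their direction in all 4 depth bins. Tff3 in hKO hepatocyte barcodes was 1378 CPM in barcodes from 500 UMIs, 2109 CPM from 1000, 2310 CPM from 3000 and 2643 CPM from 10000 UMIs upward. In WT it was 0 (0 UMIs in 65 barcodes), 60.0, 6.94 and 16.4 CPM in the same bins. Tff3 was thus higher in the deeper hKO bins and showed no order in WT, where the bins held 0, 6, 1 and 38 UMIs.

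Akr1c18 in hKO was 0, 2.40, 1.34 and 7.62 CPM from the shallowest to the deepest bin, from 0, 2, 1 and 10 UMIs. In WT it was 511.1, 999.3, 1325 and 543.2 CPM, highest in the bin from 3000 UMIs. Afp in hKO was 3.31, 0, 1.34 and 6.86 CPM, and in WT 213.0, 229.8, 346.9 and 240.5 CPM. The WT intervals of Afp overlapped in all 4 bins, while Akr1c18 in WT differed between the middle bins and the outer ones by more than counting error. For Gpc3 the 4 bins gave 0, 1.20, 2.68 and 2.29 CPM in hKO and 21.3, 60.0, 55.5 and 31.1 CPM in WT.

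**Figure D2:**
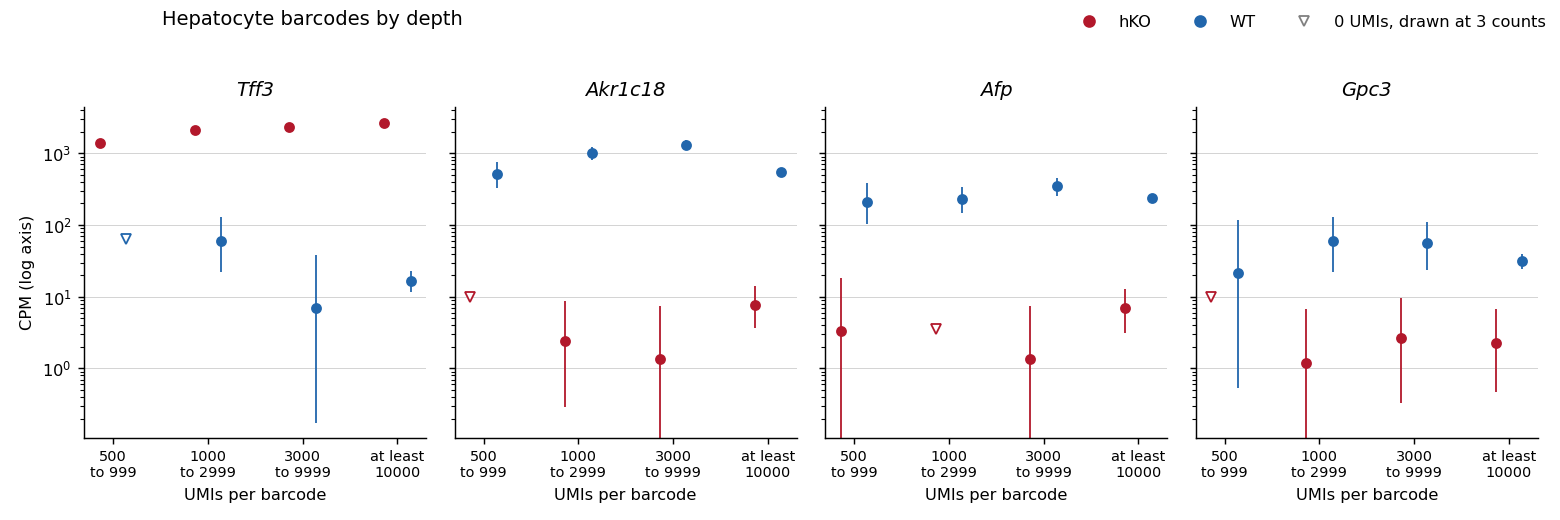
CPM (log axis) of Tff3, Akr1c18, Afp and Gpc3 in hepatocyte barcodes of 4 depth bins, with 95% Poisson intervals, hKO left of WT in each bin. In every bin Tff3 is higher and Akr1c18 and Afp are lower in hKO, with open triangles marking bins of 0 UMIs at 3 counts.

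Thinning every barcode to 1000 UMIs gave the same picture at 1 common depth. It used 696 hKO and 163 WT hepatocyte barcodes and left out 406 and 65 that were shallower. Tff3 was then detected in 72.0% (68.5 to 75.3) of hKO barcodes and 2.45% (0.673 to 6.16) of WT barcodes. Akr1c18 was detected in 0.431% of hKO and 46.6% of WT barcodes, and Afp in 0% of hKO and 16.6% of WT barcodes. The 0 of 696 for Afp allows a share of up to 0.431% at 3 counts, and its Clopper-Pearson limit is 0.529%. At the same depth, T or NK barcodes held Tff3 in 10.3% of hKO and 0% of WT, and Akr1c18 in 0% of hKO and 0.842% of WT. At 10000 UMIs, a depth added after the data were seen, Akr1c18 was found in 4.35% of 46 hKO and 92.1% of 76 WT hepatocyte barcodes. Afp was found there in 6.52% of hKO and 76.3% of WT barcodes, and Tff3 in 95.7% of hKO and 6.58% of WT barcodes.

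In the barcodes of at least 10000 UMIs, 46 in hKO and 76 in WT, the spread between single barcodes could be seen. This view was also added after the data were seen. Tff3 had a median of 2630 CPM in hKO (quartiles 1086 and 3290, highest 7714), against a median of 0 CPM and a highest value of 298.8 CPM in WT. Akr1c18 had a median of 0 CPM and a highest value of 79.8 CPM in hKO, against a median of 452.6 CPM (quartiles 184.0 and 610.7, highest 1853) in WT. Afp had a median of 0 CPM and a highest value of 84.1 CPM in hKO, against a median of 181.7 CPM (quartiles 63.6 and 298.3, highest 1262) in WT. For each of the 3 genes the full ranges of the libraries overlapped, while the ranges between quartiles did not, the quartiles being 0 in the lower library.

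Counted without thinning, Afp and Akr1c18 were often found in the same deep WT barcodes. Of the 65 with an Afp UMI 63 also had an Akr1c18 UMI, and of the 74 with Akr1c18 the same 63 had Afp. Since 74 of all 76 carried Akr1c18, this overlap is no more than its frequency gives. Akr1c18 was in 96.9% of the deep WT barcodes with Afp and in 100% of those without. Tff3, in the 12 WT barcodes where it occurred, was accompanied by both in all 12. Thinned to 10000 UMIs, 41 of the 46 deep hKO barcodes had a UMI of exactly 1 member, and 44 of the 46 had Tff3. At the same thinning, 51 of 76 WT barcodes had 2 members, 5 had 3, 1 had 4, 17 had 1 and 2 had none.

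The promoters of Afp and Akr1c18 are shown because these 2 members met the rule as lower in hKO hepatocyte barcodes. Each line gives the 250 bases before the annotated start, 5' to 3' on the gene's strand, from RefSeq on GRCm38.p6, for Afp at chr5:90490464-90490713 on the plus strand and for Akr1c18 at chr13:4150647-4150896 on the minus strand. Capitals mark 3 motifs, each searched on both strands. The first is GTTAAT, a half-site of the liver factor HNF1. Another is TATAAA, known as the TATA box. The last is CCAAT, known as the CCAAT box.
Afp: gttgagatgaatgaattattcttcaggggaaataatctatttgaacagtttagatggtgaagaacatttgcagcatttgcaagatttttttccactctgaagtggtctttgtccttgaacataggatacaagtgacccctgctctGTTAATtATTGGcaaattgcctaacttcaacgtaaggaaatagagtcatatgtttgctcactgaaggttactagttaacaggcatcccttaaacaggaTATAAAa
Akr1c18: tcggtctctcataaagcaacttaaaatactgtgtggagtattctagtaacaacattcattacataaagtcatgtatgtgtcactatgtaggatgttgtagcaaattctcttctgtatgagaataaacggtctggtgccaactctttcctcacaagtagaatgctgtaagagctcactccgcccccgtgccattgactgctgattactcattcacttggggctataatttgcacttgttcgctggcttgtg
The Afp window held 1 match to each of the 3, with no overlap between them. There were 99 bases between the GTTAAT match and the annotated start, 93 bases between the CCAAT match, on the other strand, and the start, and 1 base between the TATAAA match and the start. The Akr1c18 window had 0 matches to each. Of 32851 mouse windows of the same length 6.43% held GTTAAT, 12.4% held TATAAA and 33.8% held CCAAT. Windows were listed for 4 of the 6 members, Afp, Akr1c18, Gpc3 and Igf2.

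The genes whose pattern was most like a member's were found over epithelial barcodes thinned to 3000 UMIs, 224 in hKO and 146 in WT, as the Pearson correlation of log(1 + UMIs). Barcodes of a library share its free RNA, and the correlations are descriptions without a test. Of these barcodes, 22 in hKO and 43 in WT came from the cholangiocyte gate. Genes that differ between the 2 epithelial types can correlate for that reason, which was not tested. In hKO, Tff3 was most like Apom (r = 0.70), a lipoprotein component made by hepatocytes. Alb, Apoh, Hp and Hpx came next, all genes of secreted plasma proteins, with r of 0.67 to 0.61. In WT, Akr1c18 was most like Ddt (0.65), Cyb5a, Ttc36, Acaa2 and Fabp2 (0.57). Afp in WT was most like A2ml1 (0.54), Ddt, Cyb5a, Hist1h2bc and Prdx1 (0.46), so that Ddt and Cyb5a stood in both lists of 5. Gpc3, H19 and Igf2 had a UMI in too few thinned barcodes for this comparison in either library.

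In the cholangiocyte barcodes Akr1c18 was again lower and Tff3 again higher in hKO, and Gpc3 was higher in hKO, opposite to the hepatocyte barcodes. These sets are small, 22 barcodes and 267761 UMIs in hKO and 44 barcodes and 764248 UMIs in WT. By the same rule 2 members were higher and 1 lower, beside 6.94% higher and 6.75% lower of 4830 genes. All 8 biliary markers had UMIs in both libraries, 6 of them over 50 CPM in hKO and 5 in WT, and hepatocyte-list genes made up 1.30% of UMIs in hKO and 1.24% in WT, with 12 and 10 of the 12 genes over 50 CPM. Rgs5, a pericyte gene of the stellate or fibroblast list, stood at 1617 CPM in hKO and 333.7 CPM in WT, whereas Col3a1 and Pdgfrb were at 0 in both. Its part in these results was not tested.

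Gpc3 had 14 UMIs in hKO and 10 UMIs in WT cholangiocyte barcodes, 52.3 CPM (28.6 to 87.7) and 13.1 CPM (6.28 to 24.1), with a log2 ratio of 2.00 (0.72 to 3.33). The hKO UMIs lay in 3 barcodes, with 6, 5 and 3 UMIs, and the WT UMIs in 4. The difference met the rule, but it did not with the biliary gate at 2 markers (log2 1.72), with mixed barcodes kept (2.26), after doublet removal (2.26) or without the top barcode of each library (2.00).

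Tff3 had 48 UMIs in hKO and 10 UMIs in WT cholangiocyte barcodes, a log2 ratio of 3.78 (2.77 to 4.92). Of the 48, 37 came from 1 barcode that passed both gates. In barcodes that passed the biliary gate alone there were 11 UMIs in hKO and 10 in WT, 43.1 CPM (21.5 to 77.2) and 15.1 CPM (7.25 to 27.8). That difference, a log2 ratio of 1.51, did not meet the rule, and the hKO level did not exceed the 92.9 CPM (85.2 to 101.1) of hKO T or NK barcodes.

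Akr1c18 had 1 UMI in hKO and 78 UMIs in WT cholangiocyte barcodes, 3.73 CPM and 102.1 CPM, a log2 ratio of -4.77 (-10.1 to -2.25). Of the 78, 34 came from 1 barcode that passed both gates, and the WT level without that barcode was 60.4 CPM. With the biliary gate alone Akr1c18 had 1 and 35 UMIs, a log2 ratio of -3.75. Afp had 0 UMIs in hKO and 13 UMIs in WT, where 5 barcodes held them. At this depth the 95% interval of its log2 ratio reached up to -0.09, so the size of the difference could not be given, and with a mitochondrial limit of 10% the interval included 0. H19 had 1 UMI in hKO and 0 UMIs in WT, and Igf2 had 0 in both.

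Over hepatocyte and cholangiocyte barcodes together the ratios were close to those in hepatocyte barcodes for Tff3 (7.04), Akr1c18 (-6.92) and Afp (-5.93), with 1 member higher and 2 lower beside 10% and 40.2% of 4016 genes. The log2 ratio of Gpc3 over both was -2.32 (-3.09 to -1.61), from 20 UMIs in hKO and 97 UMIs in WT.

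Tff3, Akr1c18 and Afp were at lower levels in the other types than in hepatocyte barcodes of the library where each was high. Tff3 in hKO ranked from hepatocyte (2306 CPM) to mixed (809.3), cholangiocyte (179.3), neutrophil (160.8), erythroid (133.4), B (127.8), unassigned (126.1), T or NK (92.9), endothelial (79.5), plasmacytoid dendritic (71.8), plasma (69.7), monocyte or macrophage (68.2) and conventional dendritic barcodes (62.0). The stellate and mast barcodes held 1 and 11 UMIs. From cholangiocyte barcodes down, the counting intervals of neighbours in this order overlapped, except between unassigned and T or NK barcodes. In WT, Tff3 was 0 to 1.57 CPM in every type outside the epithelial and mixed barcodes, with 0 UMIs in 1191 T or NK barcodes.

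Set against hepatocyte RNA, in a measure added after the data were seen, Tff3 in hKO was highest in hepatocyte barcodes. Per 1000 UMIs of the 12 hepatocyte genes there were 25.5 Tff3 UMIs (24.9 to 26.1) in hKO hepatocyte barcodes. There were 18.3 in mixed, 13.8 in cholangiocyte, 19.5 in T or NK, 18.2 in B and 17.2 (16.4 to 18.1) in monocyte or macrophage barcodes. Plasmacytoid dendritic barcodes had 16.5, neutrophil 22.9, endothelial 19.03 and erythroid 21.5. The interval of hepatocyte barcodes did not overlap that of monocyte or macrophage barcodes. It did overlap those of neutrophil (18.9 to 27.5) and erythroid barcodes (17.6 to 26.0), so hepatocyte barcodes were not told from these by this measure. A Tff3 UMI was present in 34.7% of hKO T or NK barcodes, at a median depth of 4095 UMIs, and its source there was not tested. The shares in the other hKO immune and endothelial types were 31.4 to 44.4%, at median depths of 1995 to 11813 UMIs.

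**Figure D3:**
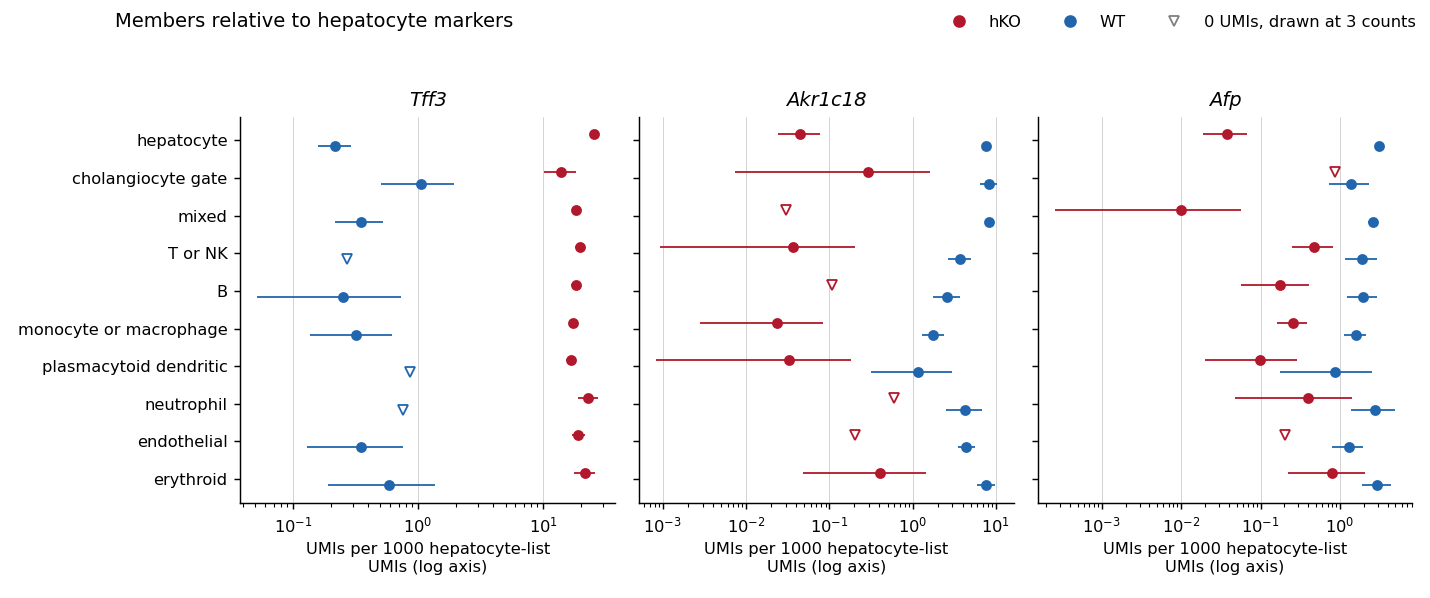
UMIs of Tff3, Akr1c18 and Afp per 1000 UMIs of 12 hepatocyte genes (log axis) in marker-defined barcodes, hKO above WT, with 95% Poisson intervals and open triangles at 3 counts for 0 UMIs. Tff3 in hKO lies between 13.8 and 25.5 in all 10 sets.

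Akr1c18 and Afp had their high levels in WT. Akr1c18 ran from 603.5 CPM in hepatocyte, 436.9 in mixed and 102.1 in cholangiocyte barcodes to 29.5 in unassigned, 20.4 in erythroid, 15.3 in neutrophil, 8.02 in endothelial, 7.72 in T or NK, 6.02 in B and 3.41 CPM in monocyte or macrophage barcodes. The intervals of endothelial, T or NK and B barcodes overlapped. Per 1000 hepatocyte-list UMIs there were 7.57 in WT hepatocyte and 8.21 in both WT mixed and WT cholangiocyte barcodes. In the WT types outside the epithelial gates this ranged between 1.15 in plasmacytoid dendritic and 7.67 in erythroid barcodes. In hKO, Akr1c18 had 0 to 2 UMIs in each non-epithelial type.

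Afp in WT was 245.5 CPM in hepatocyte and 139.7 CPM in mixed barcodes, then 18.3 in unassigned, 17.01 in cholangiocyte, 9.88 in neutrophil, 7.86 in erythroid, 4.46 in B, 3.95 in T or NK, 3.03 in monocyte or macrophage and 2.32 CPM in endothelial barcodes, neighbours from neutrophil down overlapping. Of the 90 WT unassigned UMIs, 32 came from 1 barcode of 40593 UMIs with 1 Alb UMI. In hKO its level was 2.25 CPM (1.20 to 3.85) in T or NK barcodes, not apart from the 3.44 CPM in hepatocyte barcodes. The 721 hKO mixed barcodes held 1 Afp UMI, and the 338 WT mixed barcodes held 166.

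Gpc3 in mixed barcodes was 0.446 CPM in hKO and 33.7 CPM in WT, the WT value being near that of WT hepatocyte barcodes. Outside the epithelial gates, the barcodes with stellate or fibroblast markers on numbered 5 in hKO and 13 in WT and held 0 and 1 Gpc3 UMIs. In the joint clustering, however, the stellate or fibroblast cluster, of 17 hKO and 34 WT barcodes, had the highest Gpc3 level of any cluster, 106.8 CPM over both libraries, against 52.5 CPM in the hepatocyte cluster of 2 hKO and 351 WT barcodes. WT erythroid barcodes held 24 Gpc3 UMIs, 15 of them in 1 barcode, and WT endothelial barcodes held 22 UMIs in 22 barcodes (2.32 CPM), against 3 UMIs in hKO (0.849 CPM, intervals overlapping).

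H19 and Igf2 were also found in endothelial barcodes, in few of them. In endothelial barcodes H19 had 30 UMIs in hKO and 71 UMIs in WT, 8.49 CPM (5.73 to 12.1) and 7.49 CPM (5.85 to 9.45), levels that overlapped. They lay in 11 barcodes of each library, of 591 hKO and 1325 WT barcodes, and the highest held 11 UMIs in hKO and 26 in WT. Igf2 had 6 UMIs in hKO and 12 UMIs in WT endothelial barcodes, 1.70 CPM and 1.27 CPM; the other types had 0 to 4 UMIs. The WT endothelial barcode with 26 H19 UMIs also held 3 Igf2 UMIs. For H19, T or NK barcodes gave 3 UMIs in hKO and 1 UMI in WT. Monocyte or macrophage barcodes gave 42 UMIs in hKO, in 32 barcodes (0.951%, against 1.09% of the shallower hKO hepatocyte barcodes), and 14 UMIs in WT, in 3 barcodes. Unassigned barcodes gave 82 UMIs in hKO, 55 of them in the barcode described above, and 2 UMIs in WT.

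**Figure D4:**
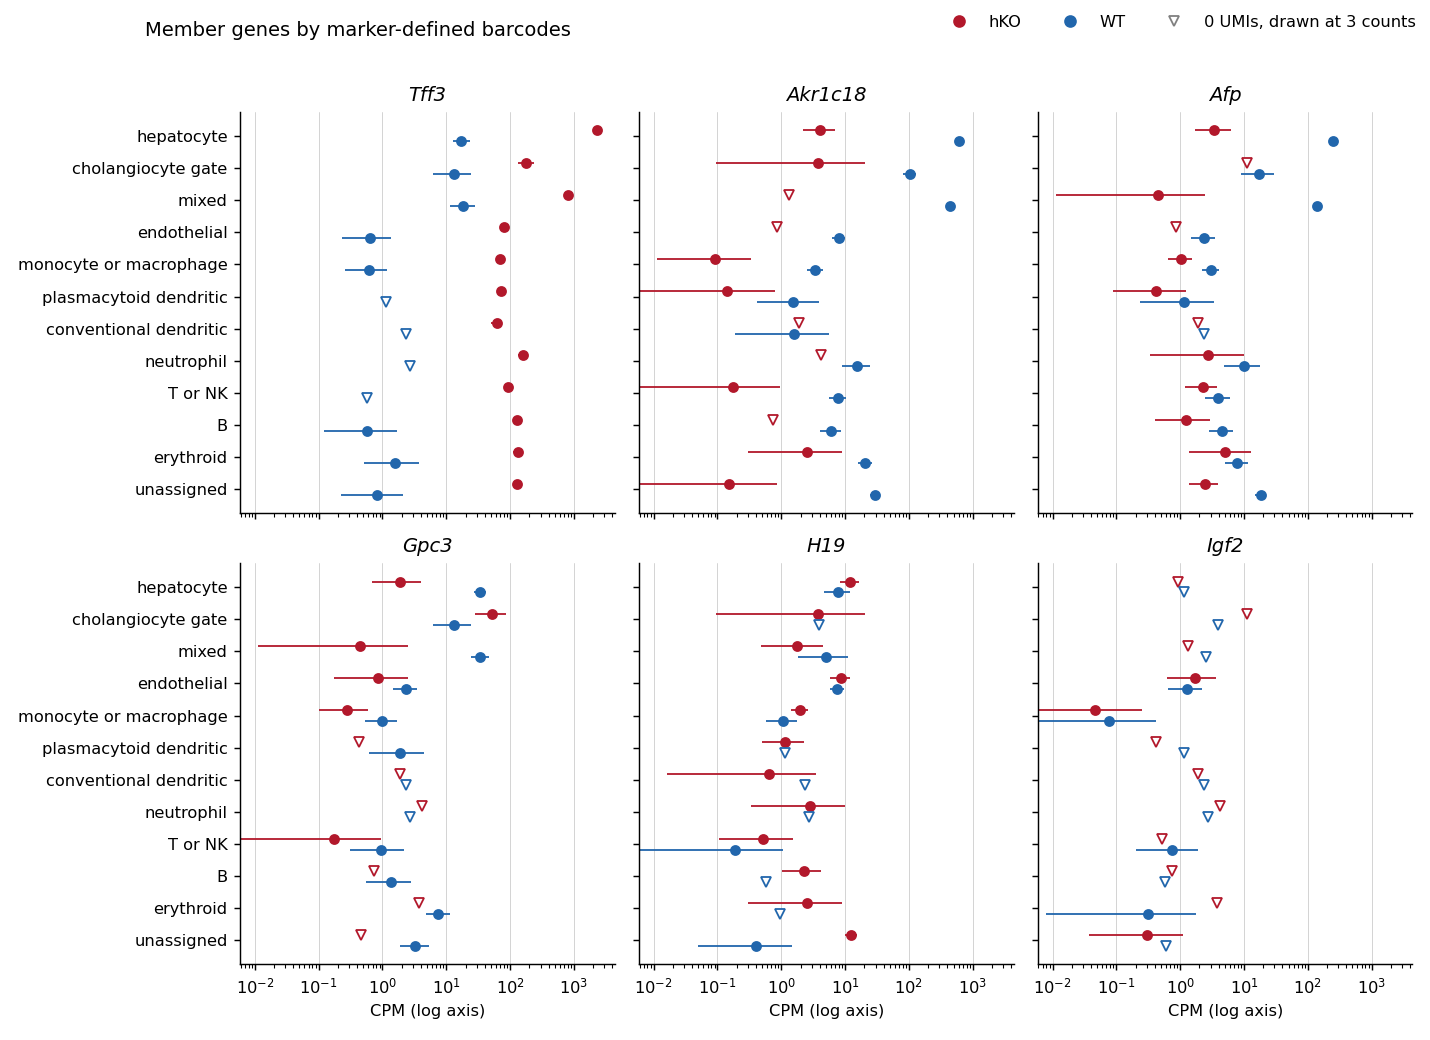
CPM (log axis) of the 6 members in 12 sets of barcodes, hKO above WT, with 95% Poisson intervals and open triangles at 3 counts for sets with 0 UMIs. Tff3 in hKO stands at 62.0 CPM or more in every set, and Akr1c18 and Afp in WT peak in hepatocyte barcodes at 603.5 and 245.5 CPM.

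Related genes are given for hepatocyte barcodes from lists that earlier results of these data could have influenced, beside the 10.8% higher and 42% lower of the 3771 genes at 50 CPM in a library. A list's genes under that level could not be counted as different. Among 20 other fetal liver and liver tumor genes, 8 reached 50 CPM, and 6 were lower and 1 higher in hKO, with a median log2 ratio of -1.41. Ly6d, a surface protein, was 1221 CPM in hKO and 6222 CPM in WT (log2 -2.35), and Tspan8, a tetraspanin, was 101.7 CPM in hKO and 1641 CPM in WT (-4.01). The guidance receptor Robo1 (-3.21), the progenitor factor Sox9 (-1.30), Bex1 (-4.22) and Bex2 (-4.41) were the other lower genes. Spink1, a trypsin inhibitor, was the higher one, with 325.8 CPM in hKO and 27.3 CPM in WT (3.58).

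Among 12 regulators of Afp and H19, 8 reached 50 CPM, and 7 were lower in hKO and none was higher, with a median log2 ratio of -1.33. They include 3 known repressors of Afp in mouse liver: Zbtb20 had 310.4 CPM in hKO and 823.9 CPM in WT (log2 -1.41), Zfhx3 had 43.2 CPM and 117.5 CPM (-1.44), and Zhx2 had 16.6 CPM and 56.5 CPM (-1.77). The activator Hnf4a had 99.8 CPM in hKO and 432.5 CPM in WT (-2.12). Foxa3, Nr5a2 and Ctcf were lower as well, while Cebpa had 73.2 CPM in hKO and 76.4 CPM in WT. Of 15 genes of the imprinted fetal growth network, 2 reached 50 CPM, and 1 was higher and none lower, with a median log2 ratio of -0.80. That gene, the amino acid transporter Slc38a4, had 233.8 CPM in hKO and 114.9 CPM in WT (1.03). Meg3, an imprinted noncoding RNA, had 0 UMIs in hKO and 106 UMIs in WT (40.7 CPM), under the 50 CPM of the rule.

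Of 14 genes of the IGF axis, 8 reached 50 CPM, and 1 was higher and 5 were lower, with a median log2 ratio of -1.08. Igf1, the adult liver's growth factor, had 69.8 CPM in hKO and 6.15 CPM in WT (3.51). Igfbp1, a binding protein of IGFs, had 129.6 CPM in hKO and 4177 CPM in WT (-5.01), and Igfbp3 had 1.56 CPM in hKO and 100.6 CPM in WT (-6.01). The others were Igf2r (-1.63), a receptor that clears Igf2, Irs1 (-1.66) and Igfbp2 (-1.08).

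Close relatives of the members gave mixed values. In the albumin family, Alb had 33750 CPM in hKO and 18185 CPM in WT (0.89), Afm had 229.4 CPM in hKO and 47.2 CPM in WT (2.28) and Gc had 6753 CPM and 5426 CPM (0.32), so 1 of 3 met the rule as higher and none as lower. Of 8 other Akr1c genes, 6 reached 50 CPM, and 2 were higher and none lower: Akr1c6 had 394.0 CPM in hKO and 130.2 CPM in WT (1.60), and Akr1c14 had 74.8 CPM and 14.2 CPM (2.40). Of 5 other glypicans, 2 reached 50 CPM and both were lower: Gpc4 with 35.4 CPM in hKO and 148.3 CPM in WT (-2.07) and Gpc6 with 0 UMIs in hKO and 146 UMIs (56.1 CPM) in WT. Gpc1 had 42.2 CPM in hKO and 3.07 CPM in WT, under the rule's level. Of 6 trefoil factors and mucins none reached 50 CPM, and Tff2 had 24 UMIs in hKO and 0 UMIs in WT.

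Of 12 beta-catenin targets of liver 3 reached 50 CPM, and 2 were higher and 1 lower, with a median log2 ratio of 1.07. Cyp2e1 had 64.5 CPM in hKO and 8.83 CPM in WT (2.87), Glul, glutamine synthetase, had 70.7 CPM and 33.8 CPM (1.07), and Rnf43 had 8.76 CPM and 58.0 CPM (-2.73). None of 10 cell cycle genes reached 50 CPM. Their median log2 ratio was 2.99, Mki67 with 67 UMIs in hKO and 1 UMI in WT.

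**Figure D5:**
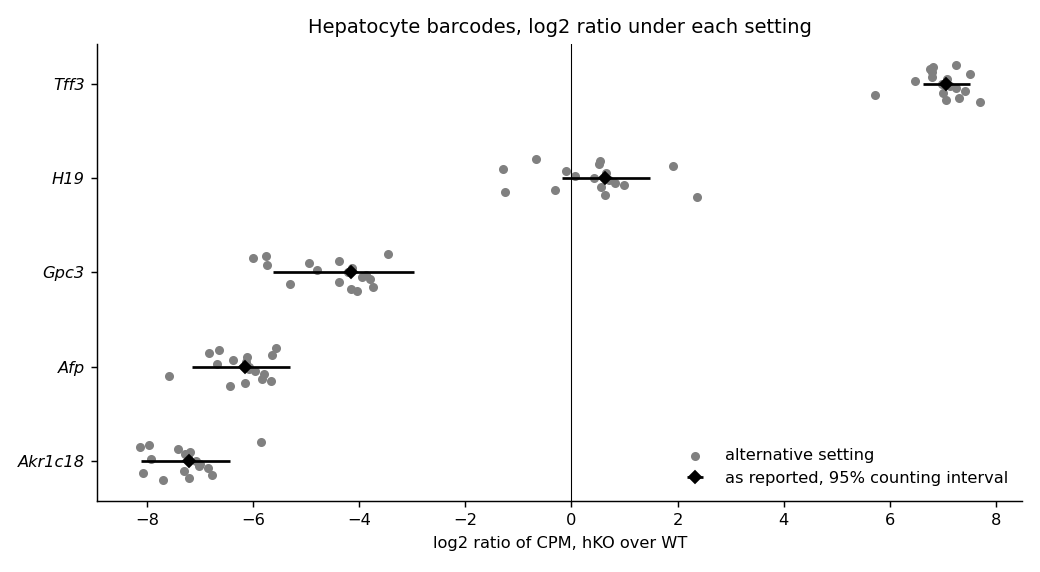
Log2 ratio of CPM, hKO over WT, in hepatocyte barcodes for 5 members, as reported (diamond, 95% counting interval) and under 17 alternative settings (grey points, the rightmost of H19 a bound at 3 counts in WT). Tff3 stays between 5.73 and 7.71, Gpc3 between -6.00 and -3.46, Afp between -7.59 and -5.58 and Akr1c18 between -8.15 and -5.86, while H19 lies on both sides of 0.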

How the data were processed

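The authors deposited unnormalized UMI counts of droplet 3' libraries. Cell Ranger 7.1.0 wrote them, per the file headers, and R 3.0, Seurat 3 and build mm9 are named in the submitters' processing notes. No release of the gene annotation is stated, so no coordinates come from the counts, and the promoter and transcript sequences are of GRCm38.

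Samples were grouped by their genotype labels, 1 library each. The members, marker lists, gene lists and rules were chosen with earlier results of these data known. A marker was on in a barcode with at least 1 UMI and at least 100 CPM there. Barcodes outside the epithelial gates took the type, of 11, with the most markers on, at least 3, and ties stayed unassigned. Gates were used in place of clusters because the deep WT cluster with hepatocyte and cholangiocyte markers (cluster 24, 42 hKO and 207 WT barcodes) stayed unnamed in a joint clustering. No doublet caller was used for the reported values. As an alternative, Scrublet was run, but its own threshold called 0.0175% of hKO and 0% of WT barcodes, so the top expected rate was removed (1049 and 777). Intervals are exact Poisson for CPM, Clopper-Pearson for shares and conditional binomial for ratios, at 95%. A count of 0 was set to 3 counts over the set. With 1 library per group no test was made. The 10 lists beside the members report the counts that passed the fold rule and 2 to 4 genes of largest CPM, and genes beyond these were named after their values were seen. The places of ratios among all genes, the single top barcodes, the shared sequence and the overlapping genes were added after the data were seen. The ratio and rule were run on simulated Poisson sums. These hold no UMIs concentrated in single barcodes, so the simulation does not cover that case. Python 3.11.15, NumPy 2.4.6, SciPy 1.17.1, pandas 2.3.3, Scanpy 1.11.5 and Matplotlib 3.10.9 were used.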

Additional observations from a re-analysis of the deposited data

Results flagged for a closer look

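Gpc3 had opposite directions in the 2 epithelial sets, which is why it is listed here. Its log2 ratio of hKO over WT was -4.15 in hepatocyte barcodes and 2.00 in cholangiocyte barcodes. With 1 library per group the difference between the sets was not tested, and the second value rests on 14 UMIs in hKO and 10 UMIs in WT.

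Barcodes over the mitochondrial limit, which are left out of the reported values and enter only where that limit was raised or dropped, held Tff3 in hKO above its level in WT. The hKO level was 1417 CPM in hepatocyte barcodes over the limit, 194.6 CPM in endothelial, 260.3 CPM in erythroid and 287.3 CPM in monocyte or macrophage barcodes. In the same WT sets it was 4.69 CPM, 0 CPM, 2.504 CPM and 0 CPM. Only levels higher in hKO were looked for here. In hepatocyte barcodes over the limit, Akr1c18 (log2 ratio -8.46) and Afp (-6.14) were lower in hKO. Gpc3 had 0 UMIs in hKO and 50 UMIs in WT there (234.7 CPM), 30 of them in 1 barcode.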

How the results depend on the processing

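In hepatocyte barcodes, and in hepatocyte and cholangiocyte barcodes together, the counts of 1 member higher and 2 lower stayed within 1.5 times under every alternative run. Tff3, Akr1c18 and Afp met the rule under all 17 settings in both. In cholangiocyte barcodes the count of higher members, 2 as reported, was 1 with a mitochondrial limit of 10%, with the biliary gate at 2 or at 4 markers, with mixed barcodes kept and after doublet removal, and 0 without the top barcode of each member in each library. The count of lower members, 1 as reported, was 2 with the gate at 2 markers and 0 with the gate at 4 markers. Clusters gave no value there because no cluster was named cholangiocyte. H19 in hepatocyte barcodes was below 0 in 5 of 17 settings. The causes were not tested. Leaving out the top barcode of each library was chosen after seeing the data. No paired analysis was possible because each group has 1 library. Depth limits the cholangiocyte values, where 1 UMI in hKO is worth more than in WT.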
